A study of Homo sapiens with 2 samples.

Results

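The genes described here make and protect the deoxynucleotides of DNA: TK1, RRM1, RRM2, TYMS and DUT. They were chosen by name, and every row of these 5 genes was taken from the expression table and from the skipped exon table. The expression table lists 5 transcripts of 4 of the genes, out of 993 transcripts of 812 genes in all, and the skipped exon table lists 10 events in 3 of them, out of 35827 events in 9939 genes. TYMS has no transcript in the expression table, and RRM2 and DUT have no event in the skipped exon table. The cells were A549, a human non-small cell lung cancer line given either DMSO, the solvent, or 7.22 nM paclitaxel, a drug that stabilizes microtubules, for 72 h. Each condition has 1 library, so no value has a replicate error, no test between conditions was possible, and every difference below describes 2 libraries. Expression is in FPKM, fragments scaled to transcript length and to the number of mapped fragments, which allows levels of different transcripts to be set side by side. Only transcripts that the authors called different are listed, so a transcript without a value has an unknown change, and the read depth behind each value is unknown.

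DNA synthesis needs a balanced supply of deoxynucleotides, which is largest in S phase. Ribonucleotide reductase, built from a large subunit (RRM1) and a small subunit (RRM2), turns ribonucleotides into deoxyribonucleotides. Thymidine nucleotides come either from dUMP through thymidylate synthase (TYMS), a target of fluorouracil, or from salvaged thymidine through cytosolic thymidine kinase (TK1). The dUTPase encoded by DUT splits dUTP into dUMP, which feeds thymidylate synthase and keeps uracil out of DNA. In dividing cells these genes are known targets of E2F factors, and the TK1 and RRM2 proteins are destroyed when cells leave mitosis, whereas the RRM1 protein is long-lived.

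All 5 listed transcripts of these genes were lower with paclitaxel, and 4 of the 5 were lower by at least 4-fold. In the whole table, 53.9% of transcripts were lower, and 48.3% were lower by at least 4-fold or listed at 0 with paclitaxel only. The median log2 ratio of paclitaxel over DMSO was -3.60 over the 5 transcripts, against -3.09 over the 503 lower transcripts with a ratio. The smallest change anywhere in the table is 2.87-fold, so a direction could be seen only for changes above that size. Which of these transcripts differ in their change beyond the spread between cultures could not be assessed.

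The promoters of the genes with values are shown here as background, because these genes are known E2F targets. Each line gives the 250 bases before a RefSeq start site (GRCh38.p14), 5′ to 3′ on the strand of the gene, with matches to an E2F word or a CCAAT box in capitals. The windows are chr17:78187053-78187302 (minus strand) for TK1, chr11:4094435-4094684 (plus strand) for RRM1, chr2:10122489-10122738 (plus strand) for RRM2 and chr15:48331947-48332196 (plus strand) for the short form of DUT.
TK1: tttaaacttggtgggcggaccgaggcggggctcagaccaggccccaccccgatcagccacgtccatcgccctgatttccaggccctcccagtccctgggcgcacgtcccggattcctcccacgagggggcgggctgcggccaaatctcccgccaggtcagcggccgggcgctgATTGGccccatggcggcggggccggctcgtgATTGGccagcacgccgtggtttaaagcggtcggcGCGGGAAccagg
RRM1: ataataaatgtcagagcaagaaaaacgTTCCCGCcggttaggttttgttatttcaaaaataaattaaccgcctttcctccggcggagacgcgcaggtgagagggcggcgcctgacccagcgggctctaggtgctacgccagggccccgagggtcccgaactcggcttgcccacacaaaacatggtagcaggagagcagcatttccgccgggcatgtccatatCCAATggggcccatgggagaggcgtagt
RRM2: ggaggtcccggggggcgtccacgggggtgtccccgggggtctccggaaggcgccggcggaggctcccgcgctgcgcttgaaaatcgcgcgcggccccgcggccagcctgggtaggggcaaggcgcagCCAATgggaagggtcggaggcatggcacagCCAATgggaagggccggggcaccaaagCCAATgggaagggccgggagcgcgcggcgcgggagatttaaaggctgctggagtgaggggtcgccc
DUT: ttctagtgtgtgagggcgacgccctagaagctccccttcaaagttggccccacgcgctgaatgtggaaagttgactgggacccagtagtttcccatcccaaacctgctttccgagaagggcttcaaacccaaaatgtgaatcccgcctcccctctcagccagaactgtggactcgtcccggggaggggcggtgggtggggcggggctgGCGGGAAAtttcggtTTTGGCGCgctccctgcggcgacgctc

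Both strands were searched for the E2F words TTTCCCGC, TTTCGCGC, TTTGCCGC and TTTGGCGC, for the 7-letter words left when the first T of each is dropped, which every 8-letter match also contains, and for CCAAT. DUT held 2 matches to the 8-letter words, at 42 to 35 and at 27 to 20 bases before its start. TK1 held 1 match to a 7-letter word, 12 to 6 bases before its start, and 2 CCAAT boxes on the other strand. In RRM1 the 7-letter match lay 223 to 217 bases before the RefSeq start, and 1 CCAAT box lay 28 to 24 bases before it. This RefSeq start lies 114 bases upstream of the start of the listed RRM1 transcript. The RRM2 window held 3 CCAAT boxes, which began 123, 93 and 66 bases before the start, and no E2F word. The other RefSeq start of RRM2 lies upstream, nearer to the start of the listed transcript ENST00000360566, and the window before it held 1 match to a 7-letter word and 1 CCAAT box. The TYMS window, chr18:657403-657652, held 1 match to an 8-letter word, 39 to 32 bases before its start. A 7-letter word was thus found in 4 of the 5 windows drawn and in 10.9% of 35116 RefSeq windows of this length, an 8-letter word in 2 of 5 and 2.79%, and a CCAAT box in 3 of 5 and 32.0%. The letters TTTAAA, a form of the TATA box, lay close to the start in TK1 (27 to 22 bases before it) and in RRM2 (30 to 25 bases before it), and are found in 11.3% of windows. TTTGAA, the letters of the cell cycle homology region, were found in RRM1 and DUT and in 13.3% of windows. A match describes the letters only and was not tested for binding. The genes were known E2F targets beforehand, and TYMS, which is counted here, has no expression value. Whether the matches bear on the lower levels with paclitaxel was not tested.

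**Figure D1:**
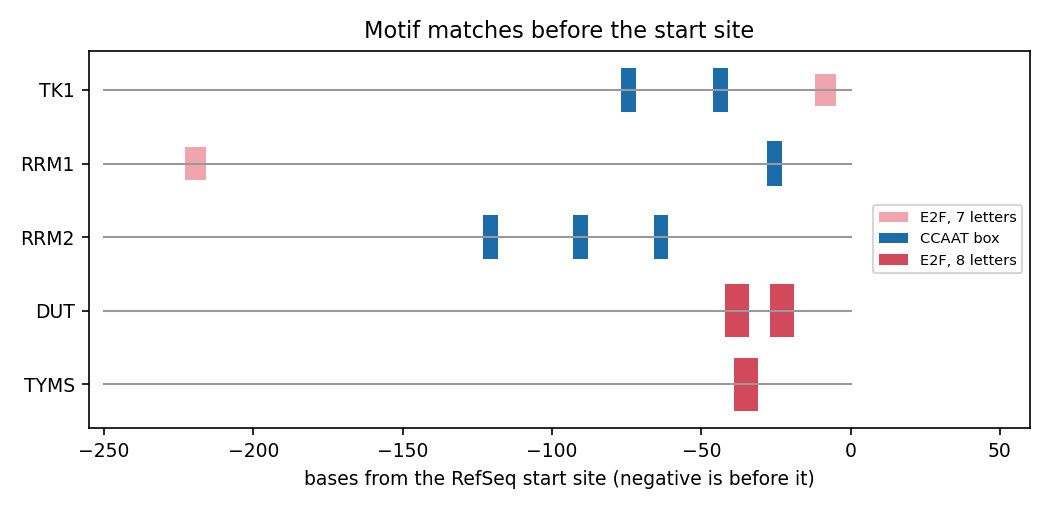
Motif matches in the 250 bases before the RefSeq start site of each gene; the x axis gives bases from the start site, and bars mark 8-letter E2F words, 7-letter E2F words and CCAAT boxes on either strand. The 2 E2F matches of DUT and the 1 match of TYMS lie within 42 bases of the start, and the window drawn for RRM2 has 3 CCAAT boxes and no E2F word.

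Among the 5 listed transcripts, that of TK1 had the highest level in the DMSO library and the largest difference in FPKM. Its listed transcript, ENST00000301634, is the MANE Select transcript, the default form agreed by RefSeq and Ensembl, with 7 exons and 234 residues (chr17:78174091-78187052, minus strand, hg38). The DMSO library held 101 FPKM of it and the paclitaxel library 8.31 FPKM. The paclitaxel library thus held 8.26% of the DMSO level, a 12.1-fold lower value and a log2 ratio of -3.60. By the size of its ratio TK1 ranked 156 among the 503 lower transcripts, and by its DMSO level 75 among all 993. The study described its affected genes from these same data, so the direction of the 5 listed transcripts is no independent evidence.

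The subunits of ribonucleotide reductase were lower to different extents. RRM1, the large subunit, had 63.2 FPKM in the DMSO library and 19.4 FPKM in the paclitaxel library in its MANE Select transcript ENST00000300738 (19 exons, 792 residues, chr11:4094799-4138932, plus strand). This is a 3.25-fold lower value, a log2 ratio of -1.70, and it ranked 494 of the 503 lower transcripts, close to the smallest change that the table holds. RRM1 kept 30.8% of its DMSO level, the largest share among the 5 listed transcripts. In the DMSO library TK1 was 1.59 times as high as RRM1, and in the paclitaxel library it was 0.428 times as high, so the order of the pair differed between the libraries. The 3′ end of RRM1 overlaps the antisense gene RRM1-AS1, and the sources do not say whether reads were counted by strand.

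For RRM2, the small subunit that carries the radical of the enzyme, 2 transcripts are listed and neither is the MANE Select form. ENST00000474701 went from 10.3 FPKM in the DMSO library to 0.927 FPKM, a log2 ratio of -3.48. ENST00000360566 went from 6.17 to 0.372 FPKM, a log2 ratio of -4.05 and the lowest ratio among the 5 listed transcripts. Their sum went from 16.5 to 1.30 FPKM, a 12.7-fold lower value, whereas RRM1 was 3.25-fold lower. ENST00000360566 (chr2:10122328-10131418, plus strand) starts 411 bases upstream of the MANE Select transcript ENST00000304567 and encodes 449 residues in place of 389, 60 more at the amino end. The promoter window printed for RRM2 therefore lies inside the first exon of ENST00000360566. ENST00000474701 was not found in GENCODE 44, so its structure is not described. The level of ENST00000304567 was not analysed here, so the change of RRM2 as a whole is unknown, and GENCODE 44 names 3 RRM2 pseudogenes whose reads may be divided with it.

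DUT is listed with the transcript of its short form, which is known as the nuclear dUTPase. ENST00000455976 (chr15:48332103-48343369, plus strand, 6 exons, 164 residues) went from 19.4 FPKM in the DMSO library to 1.47 FPKM in the paclitaxel library. This is a 13.2-fold lower value, a log2 ratio of -3.72, with 7.57% of the DMSO level left. The MANE Select transcript ENST00000331200, which encodes 252 residues and is known as the mitochondrial form, starts 674 bases upstream with another first exon, and its level was not analysed here. As background, the nuclear form is known to follow cell division and the mitochondrial form to be steady. The 2 matches to 8-letter E2F words printed above precede the start of the short form, and the 3 other RefSeq windows of DUT, which lie upstream, held neither an 8-letter nor a 7-letter match. The RefSeq start of the short form lies 94 bases inside the first exon that GENCODE gives it. GENCODE 44 names 8 DUT pseudogenes, so the division of reads is uncertain here too.

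**Figure D2:**
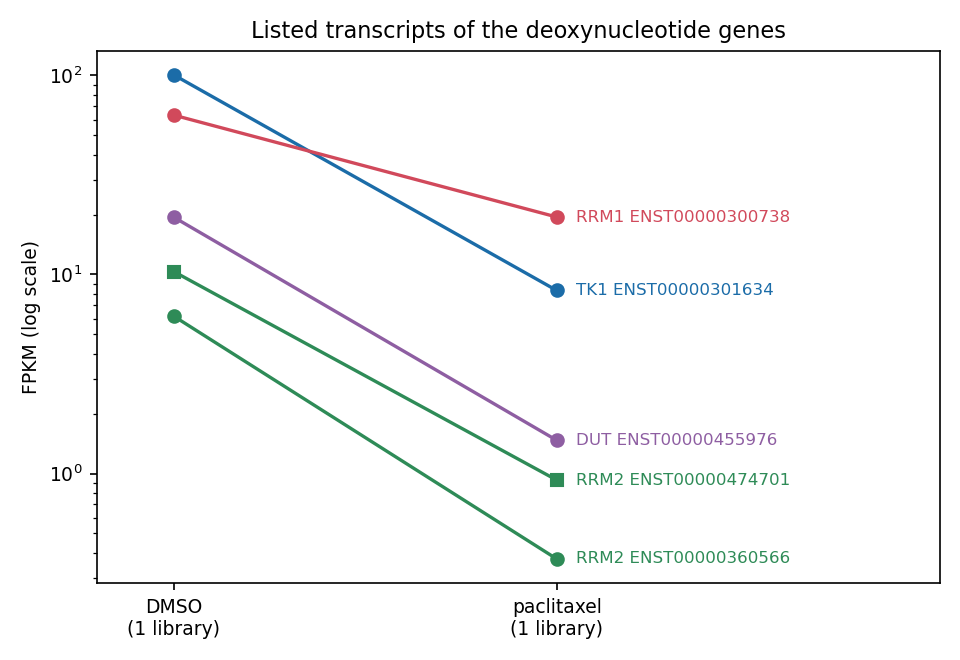
FPKM (log scale) of the 5 listed transcripts in the DMSO library and the paclitaxel library, 1 library each, with a line joining the values of 1 transcript; squares mark the RRM2 transcript ENST00000474701. Every line goes down, and the RRM1 line, from 63.2 to 19.4 FPKM, is the flattest and crosses that of TK1.

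TYMS has no listed transcript, so its expression was not analysed here and no direction can be given for it. The gene lies at chr18:657653-673578 on the plus strand, and its MANE Select transcript ENST00000323274 has 7 exons and encodes 313 residues. Its 3′ part overlaps ENOSF1 on the opposite strand over 3261 bases, and its 5′ end overlaps the antisense gene TYMSOS. Thymidylate synthase is therefore represented below by its exons alone.

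**Figure D3:**
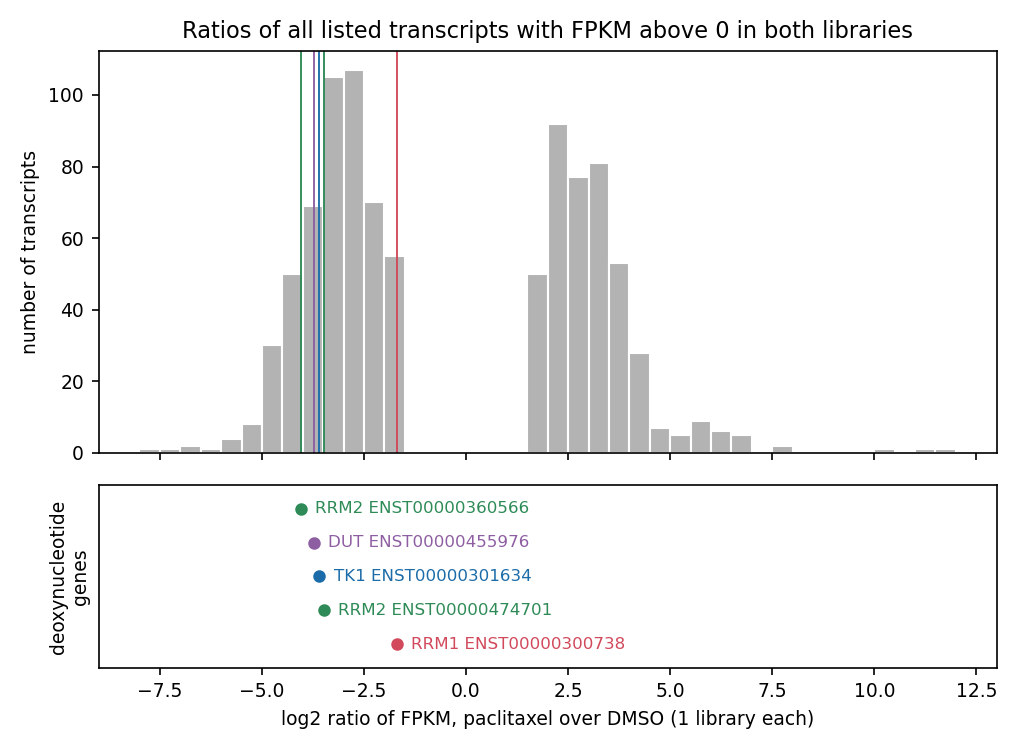
Top, number of transcripts by log2 ratio of FPKM (paclitaxel over DMSO) for the 921 listed transcripts with values above 0 in both libraries, with coloured lines at the deoxynucleotide genes; bottom, the same 5 transcripts by name. The empty centre reflects that only called transcripts are listed, 4 members lie between -4.05 and -3.48, and RRM1 at -1.70 lies at the inner edge of the lower group.

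The transcripts nearest to each of these genes in both libraries were looked up as a description. Nearness was measured as the distance between log2 FPKM values in the 2 libraries, so it rests on 2 values and says nothing of shared control. Closest to TK1 were CDC20, an activator of the anaphase-promoting complex, at 125 and 7.92 FPKM (DMSO and paclitaxel), and the cyclin-dependent kinase CDK1, at 74.5 and 8.17 FPKM. RRM1 lay beside the lamin gene LMNB2, at 60.1 and 18.5 FPKM, and UBE2T, a ubiquitin-conjugating enzyme of the Fanconi pathway, at 67.8 and 18.1 FPKM. The RRM2 transcript ENST00000474701 lay beside SKA3, a kinetochore protein, at 9.91 and 0.915 FPKM, and the helicase RECQL4, at 10.2 and 1.04 FPKM. For DUT the nearest were MCM4, a subunit of the replicative helicase, at 21.4 and 1.45 FPKM, and the chromatin protein HMGB2, at 18.8 and 1.62 FPKM.

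Around these enzymes, a list of 44 other genes of deoxynucleotide supply and pyrimidine salvage had 5 genes in the table, 2 higher and 3 lower, where 49.0% of all listed genes were higher and 51.0% lower by their most abundant transcript. Its median log2 ratio was -1.90, against -1.93 over all 921 listed transcripts with a ratio. RRM2B, the small subunit that can replace RRM2 outside S phase, went from 10.3 to 42.3 FPKM, a 4.12-fold higher value and a log2 ratio of 2.04. In the paclitaxel library the 2 listed RRM2 transcripts together stood at 1.30 FPKM and RRM2B at 42.3 FPKM, and the level of the MANE Select transcript of RRM2 is not known. DTYMK, which phosphorylates the dTMP made by TK1 or TYMS, went from 93.9 to 25.1 FPKM, a log2 ratio of -1.90. UNG, the glycosylase that removes uracil from DNA, went from 65.6 to 3.73 FPKM, a 17.6-fold lower value, beside the 13.2-fold lower DUT. SLC29A1, a transporter that brings nucleosides into the cell, went from 17.6 to 1.35 FPKM. NT5C2, a nucleotidase of purine nucleotides, went from 5.20 to 23.3 FPKM, the other higher gene of the list.

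The folate cycle provides the methyl group for thymidylate synthase, and 3 of 22 genes of that list were in the table. The median log2 ratio over their transcripts was -2.55, against -1.93 over all listed transcripts and -3.09 over the lower ones. It was thus a smaller fall than the median of the lower transcripts. MTHFD1L, a mitochondrial folate enzyme, had transcripts in both directions, ENST00000611279 from 14.2 to 3.06 FPKM and ENST00000618312 from 0.238 to 7.34 FPKM. Of 18 genes of ribonucleotide synthesis, which supplies the substrates of ribonucleotide reductase, IMPDH1 alone was in the table, with 6.08 FPKM in the DMSO library and 1.20 FPKM in the paclitaxel library.

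Of 26 genes of the E2F, RB and DREAM group, which controls transcription of genes such as TK1 and RRM1, 8 were in the table, 6 lower and 2 higher, where 51.0% of all listed genes were lower and 49.0% higher. The median log2 ratio was -3.34 over 14 transcripts, against -1.93 over all listed transcripts and -3.09 over the lower ones. E2F1 went from 24.2 to 2.67 FPKM, a log2 ratio of -3.18. E2F2 went from 3.25 to 0.205 FPKM, and the repressor E2F8, which is itself induced by E2F factors, from 2.66 to 0.209 FPKM in its transcript ENST00000250024. NFYC, a subunit of the factor that binds CCAAT boxes, went from 5.10 to 0.453 FPKM in 1 transcript. The cyclin-dependent kinase inhibitor CDKN1A went from 77.8 to 387 FPKM and was 1 of the 2 higher genes. MYBL2 went from 49.98 to 2.29 FPKM in ENST00000217026 and FOXM1 from 32.1 to 3.64 FPKM in ENST00000359843. Whether any of these levels bears on the deoxynucleotide genes was not tested.

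**Figure D4:**
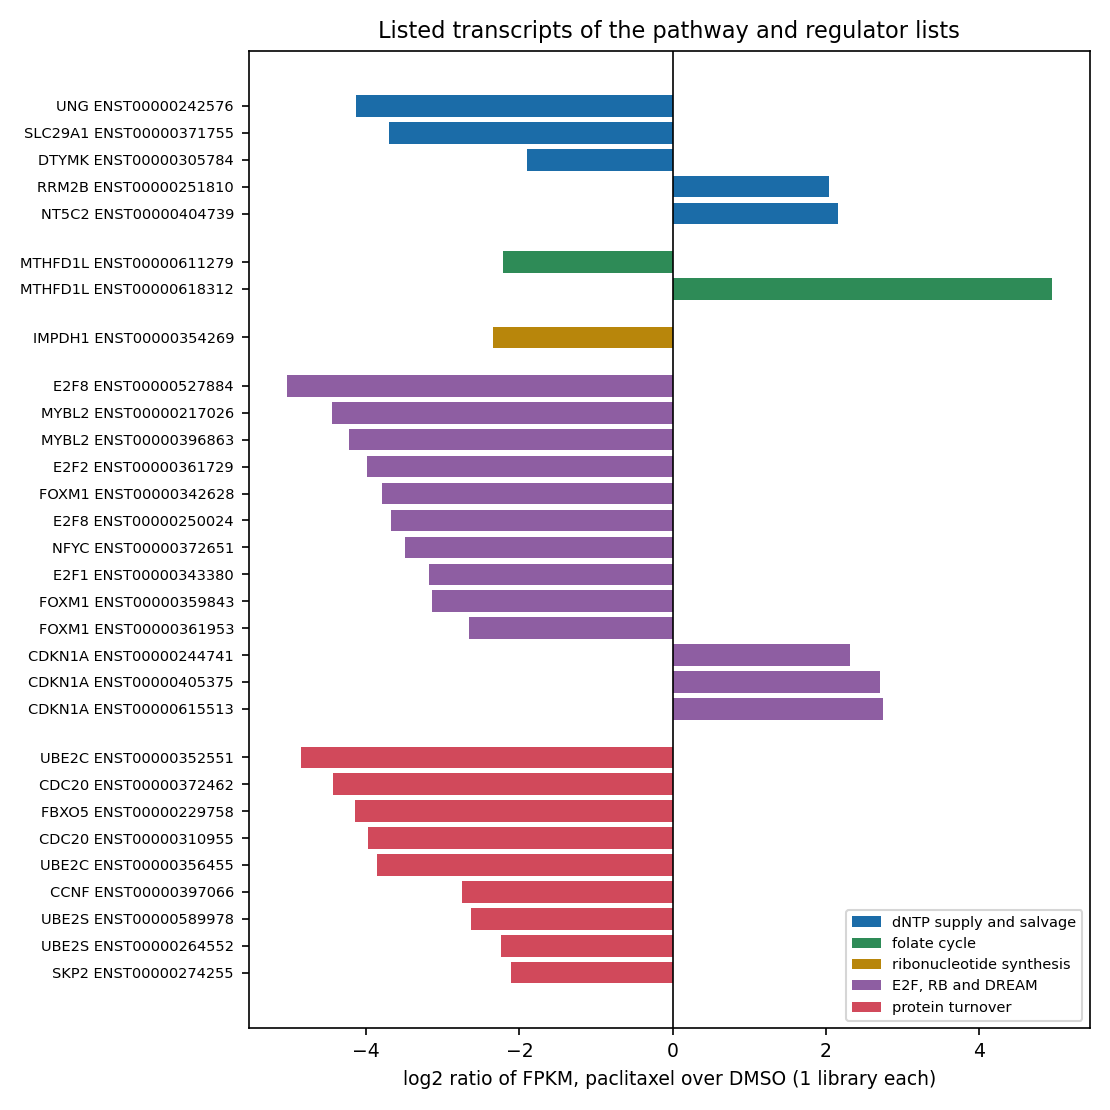
Log2 ratio of FPKM (paclitaxel over DMSO, 1 library each) for listed transcripts of 5 gene lists, coloured by list. RRM2B (2.04) and NT5C2 (2.16) point to higher values, as do CDKN1A and 1 transcript of MTHFD1L, and all others drawn point to lower values.

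Of the markers examined, 3 of 10 red blood cell genes and 1 of 10 lung epithelial genes were in the table, and none of 5 immune and none of 5 fibroblast and endothelial genes. KRT19, a keratin of epithelial cells, went from 22.9 to 107 FPKM. The other 9 epithelial markers have no value, so the label of the cells could not be checked further. HBA1 and HBA2 were at 161 and 188 FPKM and HBB at 108 FPKM in the paclitaxel library, against 0.0615 and 0.0566 FPKM and a listed 0 with DMSO. Their part in the values of the deoxynucleotide genes was not tested. In bulk RNA, fewer dividing cells and less RNA per cell cannot be told apart.

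The skipped exon table lists, for each event, an internal exon and its neighbours, and the events of RRM1, TYMS and TK1 are described by their structure. Its columns for each library name no condition and its inclusion differences are the authors' own comparison, so no inclusion level is given. A listed event therefore does not say that the exon was skipped more or less with paclitaxel. RRM1 and TYMS have 4 events each and TK1 has 2, against a median of 3 per gene over all genes with events. The 10 events concern 9 distinct exons of 74 to 222 bases with a median of 120 bases, against a median of 121 bases over all 31197 distinct exons in the table. Of the 9 exons, 8 belong to the MANE Select transcript and are wholly coding, and 3 have a length that is a multiple of 3, against 41.1% of all distinct exons. For 5 of the 10 events GENCODE 44 holds a transcript with the junction that leaves the exon out. The forms below were read from the hg38 sequence with the junctions of each event, completed with the other exons of the MANE Select transcript, and are not measurements.

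RRM1 had 4 events, of which 3 lie near its start. Exon 2 (chr11:4101993-4102081, 89 bases) and exon 3 (chr11:4106046-4106223, 178 bases) both break the reading frame, and without them the frame ends after 31 and 37 codons in place of 792. The exon at chr11:4105606-4105691, 86 bases between these exons, is absent from the MANE Select transcript and belongs to ENST00000532170, which is annotated for nonsense-mediated decay. With it the frame ends after 69 codons. Exon 14 (chr11:4127035-4127256, 222 bases) keeps the frame, and the form without it has 718 codons. In the 3 forms with a broken frame the stop lies more than 50 bases before the last exon junction, the usual mark of a target of nonsense-mediated decay.

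TYMS had 4 events, 1 for each of exons 2 to 5. Loss of exon 2 (chr18:659641-659714, 74 bases) or exon 5 (chr18:670692-670867, 176 bases) breaks the frame, and these forms have 73 and 187 codons in place of 313. Their stops lie 508 and 64 bases before the last junction, both beyond the limit of 50 bases. The event at exon 3 (chr18:662146-662320, 175 bases) has exon 1 as its upstream neighbour, so exon 2 is absent from both of its forms. Its downstream neighbour, chr18:669072-669464, begins where exon 4 begins but is longer and is not an exon of the MANE Select transcript. The codons of this event were counted with exon 4 in its place. With exon 3 the frame of that event ends after 73 codons, and without it the frame is kept and has 230 codons, the junction of the annotated transcript ENST00000323250. Exon 4 (chr18:669072-669173, 102 bases) keeps the frame and its loss leaves 279 codons, with the junction of ENST00000323224. Exon 5 lies in the part of TYMS that overlaps ENOSF1.

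TK1 had 2 events for the same exon, exon 6 (chr17:78175050-78175169, 120 bases), which keeps the frame. The events differ in the last exon. With the last exon of the MANE Select transcript the form without exon 6 has 194 codons in place of 234. With the exon at chr17:78174702-78174788, which is not an exon of the MANE Select transcript, the forms with and without exon 6 have 180 and 140 codons. No transcript of GENCODE 44 joins exon 5 of TK1 to either last exon.

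**Figure D5:**
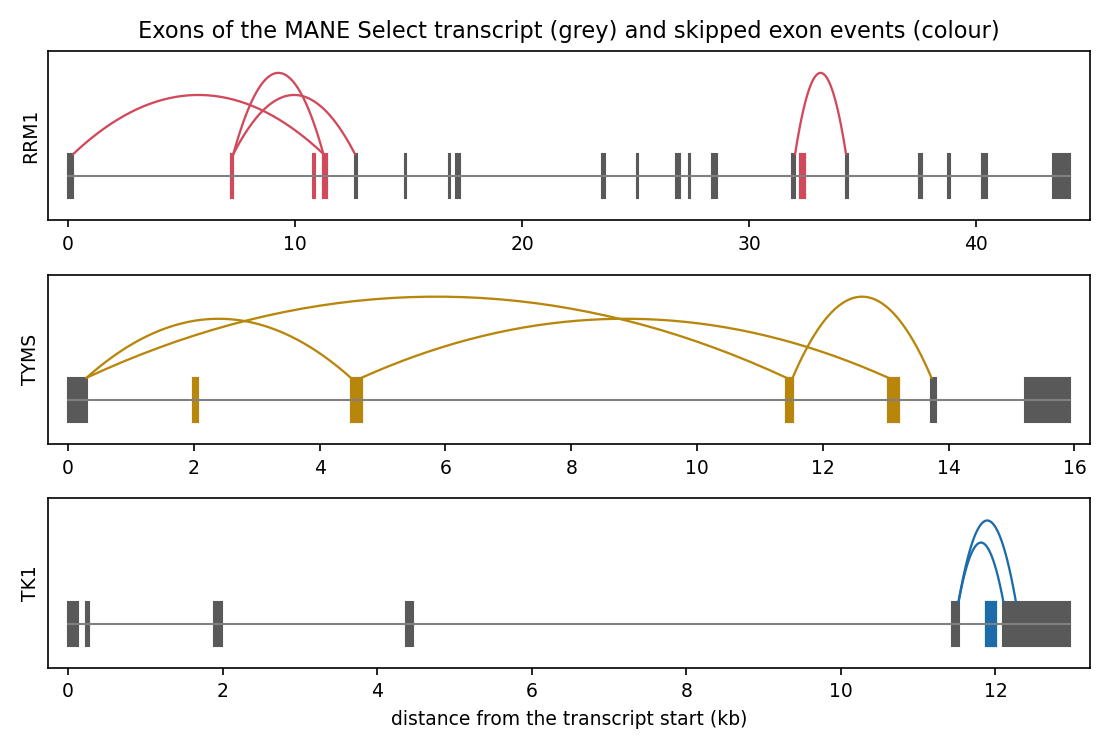
Exons of the MANE Select transcripts of RRM1, TYMS and TK1 (boxes, distance from the transcript start in kb), with skipped exons in colour and an arc for the junction that leaves each one out. RRM1 has 3 of its 4 events near its start, TYMS has events at exons 2 to 5, and both TK1 events concern exon 6.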

How the data were processed

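RNA of A549 cells given DMSO or paclitaxel was sequenced, 1 library per condition. The label of the control names no treatment, and the methods give DMSO. The authors mapped reads to hg38 (the methods name MapSplice, the submitters' processing notes TopHat) and estimated FPKM per transcript with Cufflinks. The deposited FPKM table lists transcripts that the authors called different, by a fold of 2 and an adjusted p under 0.05 as the study states, and their depth is unknown. Its column headed A549_T was taken as the paclitaxel library and the column headed A549 as the DMSO library, since T can stand only for the treated one. The deposited fold changes and p-values hold the authors' comparison and were not used, nor were the inclusion differences of the skipped exon table, whose layout is that of MATS. Another 6 columns of values per library there name no condition and were not used.

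Log2 ratios (paclitaxel over DMSO) were taken of FPKM without a pseudocount (pandas 2.3.3, Python 3.11.15). Genes were counted by whichever of their listed transcripts reached the higher FPKM. A change of 4-fold was the rule of size. The 5 genes and the lists were chosen with earlier results of these data known. Named genes were all members, the 2 nearest transcripts of other genes and the listed markers. Up to 6 genes per list were named by the size of their log2 ratio, and CDKN1A and the E2F genes wherever listed. Values of some list genes are not reported here. Exon structures came from GENCODE 44 on hg38, which holds 948 of the 993 transcripts, and promoters from RefSeq, with all 5 genes matched. For RRM2 the start of the MANE Select transcript was used, and for the other genes the RefSeq start nearest to the listed or MANE Select transcript. The ratio and count functions were checked on simulated data. Alternatives were a pseudocount of 0.1 or 1 FPKM, a minimum of 1 FPKM in both libraries, sums over the transcripts of a gene, symbols as deposited and distinct exons.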

Additional observations from a re-analysis of the deposited data

How the results depend on the processing

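Of 62 values under the alternatives, 51 stayed within 0.1 (log2 ratios) or within 1.5 times (counts) of the reported value, and 11 moved. The direction of a ratio could not change under these alternatives. A pseudocount is added to both libraries, a filter leaves each ratio as it is, and both summed RRM2 transcripts were lower. Many values were thus bound to stay the same, and the count of them is no measure of how firm the results are. With a pseudocount of 1 FPKM the median log2 ratio of the 5 transcripts was -2.56 in place of -3.60, since both RRM2 transcripts and DUT are near 1 FPKM with paclitaxel. Under a minimum of 1 FPKM in each library, TK1, RRM1 and DUT remained and 2 transcripts were lower by at least 4-fold, and in the E2F, RB and DREAM list 3 genes were lower and 1 higher. No other scaling of the libraries could be made, because the table holds called transcripts only. No library could be left out. No paired analysis was possible because each condition has 1 library.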

Other observations

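A list of 13 genes of ubiquitin ligases and related proteins was drawn up around the turnover of the TK1 and RRM2 proteins. Whether each of its genes acts on these proteins was not examined. Of the 13, 6 were in the table and 7 have no value here. Those 6 were lower with paclitaxel, where 51.0% of all listed genes were lower. The median log2 ratio was -3.30 over these 6 genes, each by its most abundant listed transcript. Over all listed transcripts with a ratio it was -1.93, and over the lower ones -3.09. CCNF, the cyclin F that marks RRM2 for destruction, went from 14.6 to 2.18 FPKM. CDC20, an activator of the anaphase-promoting complex, went from 125 to 7.92 FPKM in ENST00000310955, and FBXO5, an inhibitor of that complex, from 17.0 to 0.960 FPKM. The ubiquitin-conjugating enzymes UBE2C and UBE2S went from 156 to 10.7 FPKM (ENST00000356455) and from 330 to 53.1 FPKM (ENST00000589978). SKP2, the substrate receptor of an SCF ligase, went from 4.64 to 1.07 FPKM. FZR1, which directs the anaphase-promoting complex to TK1 and RRM2 after mitosis, is among the 7 without a value. Protein levels were not measured.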
